A study of Mus musculus with 4 samples.

Results

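The cells compared here are luminal tumour cells at the extremes of a fluorescent lineage reporter. A luminal cell was a cell barcode with at least 2500 unique molecular identifiers (UMIs, each standing for 1 captured transcript), at least 3 UMIs of the luminal genes Krt8, Krt18 and Epcam together, and at most 1 UMI of C1qa, C1qb, Col3a1, Cdh5, Krt5 and Krt14 together, genes of macrophages, fibroblasts, endothelium and basal cells. Of 36162 barcodes, 14476 met this rule. Those with at least 10 tdTomato UMIs per 4000 UMIs formed the high class (4171 barcodes) and those with no tdTomato UMI formed the zero class (176 barcodes). The 10129 luminal barcodes between them were kept as an intermediate class and described only. The reporter level chose the classes, so it is given as a description without a test.

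All 4 samples were mammary tumours of female MMTV-PyMT mice aged 13 to 14 weeks on an FVB background, and each mouse also carried K14Cre and Rosa-tdTomato. Tumour 1 was pooled from several glands of mouse 1, tumour 2 was an inguinal tumour of mouse 2, and tumours 3 and 4 were a thoracic and an inguinal tumour of mouse 3. Cells passed a column that retains dead cells and were not sorted for a cell type or for fluorescence. There was no tumour without the reporter or without Cre, so the 2 classes are cells of the same tumours and the mouse was the replicate.

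In MMTV-PyMT mice the mammary promoter of a mouse tumour virus drives the polyoma middle T oncogene in mammary epithelium, which gives luminal carcinomas. In K14Cre the human keratin 14 promoter drives Cre recombinase. Cre removes a stop sequence from the Rosa26 reporter once and for good, and the daughters of a recombined cell inherit the open reporter. Adult keratin 14 marks basal cells, while luminal and basal mammary cells share embryonic precursors that pass through a keratin 14 stage. Luminal mammary cells range from progenitors to alveolar cells, which make milk proteins and, on involution after lactation, acute phase and defence proteins.

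The reporter was found in nearly every luminal cell. A tdTomato UMI was present in 98.35% of luminal barcodes of tumour 1 (95% Clopper-Pearson interval 97.7 to 98.8), 98.71% in tumour 2 (98.4 to 99.0), 98.48% in tumour 3 (98.0 to 98.9) and 99.45% in tumour 4 (99.1 to 99.7). Such intervals cover counting error only. Barcodes with basal markers (at least 3 UMIs of Krt5 and Krt14) held the reporter in 94.58% to 100.0%. Macrophage-marker barcodes, a lineage in which keratin 14 is not expressed, held it in 53.57% of 28 barcodes, 28.0% of 100, 36.92% of 260 and 34.78% of 115, in the order of tumours 1 to 4. Their median depth was 2952.0 to 3169.5 UMIs against 3632.0 to 4286.0 for luminal barcodes. With every barcode thinned to 2500 UMIs the shares were 22% to 50.0% in macrophage-marker and 94.98% to 97.48% in luminal barcodes. The mean level was 0.405 to 1.252 tdTomato UMIs per 4000 in macrophage-marker barcodes and 6.881 to 8.966 in luminal barcodes. A single tdTomato UMI therefore did not separate luminal barcodes from barcodes of a lineage that should lack it, and 74 to 267 luminal barcodes per tumour held exactly 1.

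**Figure D1:**
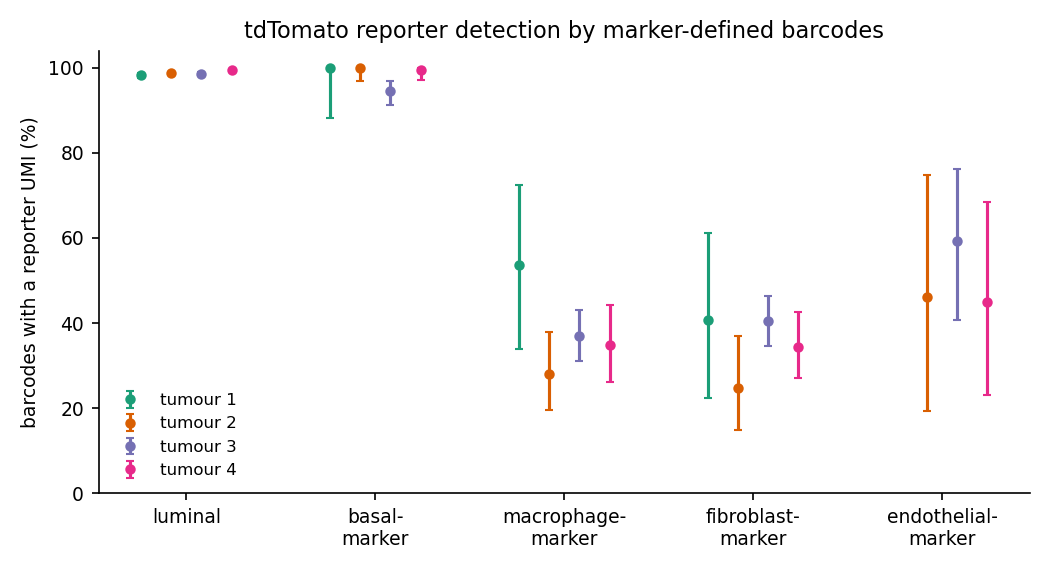
Share of barcodes with at least 1 tdTomato UMI (vertical axis, percent) in luminal barcodes and in barcodes with basal, macrophage, fibroblast or endothelial markers (horizontal axis). Points are the 4 tumours and bars are 95% Clopper-Pearson intervals; tumour 1 had 0 endothelial-marker barcodes. Luminal barcodes lie between 98.35% and 99.45%, macrophage-marker barcodes between 28.0% and 53.57%.

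The high class held 33.32% of luminal barcodes in tumour 1 (748; interval 31.4 to 35.3), 19.65% in tumour 2 (1141; 18.6 to 20.7), 33.81% in tumour 3 (1003; 32.1 to 35.5) and 37.01% in tumour 4 (1279; 35.4 to 38.6). The zero class held 1.648% (37 barcodes; 1.16 to 2.26), 1.291% (75; 1.02 to 1.62), 1.517% (45; 1.11 to 2.02) and 0.5498% (19; 0.331 to 0.857). Tumour 2 thus had the smallest high class and tumour 4 the smallest zero class. At the upper limit the levels nearest to it were 9.979 to 9.999 per 4000 below and 10.0 to 10.02 above, and 116 to 281 barcodes per tumour lay between 10 and 11, so the high class is a range of a continuous level and not a separate population. The zero class was also shallower. Median UMIs per barcode were 3282.0, 3181.0, 3470.0 and 3015.0 in the zero class and 3794.0, 4045.0, 4255.0 and 4163.0 in the high class, higher in 4 of 4 tumours (mean difference 827.2 UMIs, exact sign-flip permutation test over 4 tumours, two-sided p = 0.125, the smallest it can give; over 3 mice the smallest is 0.25). Median genes per barcode differed by 229.5 on average, and by 14.0 once every barcode was thinned to 2500 UMIs. The share of mitochondrial UMIs did not separate the classes, with a mean difference of -0.02063 percentage points (2 of 4 tumours higher in the high class). The luminal genes of the rule, which chose the cells, had medians of 4.664 to 9.989 UMIs per 4000 in the zero class and 8.107 to 11.69 in the high class.

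For the comparison, counts were summed per mouse and class, without the reporter and the 9 genes of the rule, and fitted with mouse as a block. Levels are given as CPM (counts per 1e6 UMIs of the same tumour and class). The zero class was small: its sums held 125218, 255425, 165849 and 65261 UMIs, so that 1 UMI equals 7.986, 3.915, 6.03 and 15.32 CPM in tumours 1 to 4. The high class sums held 3087712 to 6241406 UMIs. In such sums, fewer cells that express a gene and less of its RNA per cell cannot be told apart.

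Of 9090 genes tested, 952 (10.5%) differed at an adjusted p under 0.05. Against barcodes with no tdTomato UMI detected, tdTomato-high cells had 480 genes higher (5.28%) and 472 lower (5.19%). Such barcodes may still hold the reporter: thinning to 2500 UMIs alone raised the zero share to between 2.52% (tumour 4) and 5.02% (tumour 3). The high class had higher milk, acute phase and immediate early genes and lower proliferation genes, and the following paragraphs give these groups. Counts for each list below are to be read beside the shares over all genes tested, 5.28% higher and 5.19% lower. The median log2 fold change over all genes was 0.145, and 2041 genes had an unadjusted p under 0.05. The 4 tumours moved the same way for 452 of the higher and 414 of the lower genes. Leaving out mouse 1 gave 597 calls, leaving out mouse 3 gave 315, leaving out tumour 3 alone gave 482, and DESeq2 called 420 genes, 167 higher and 253 lower.

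**Figure D2:**
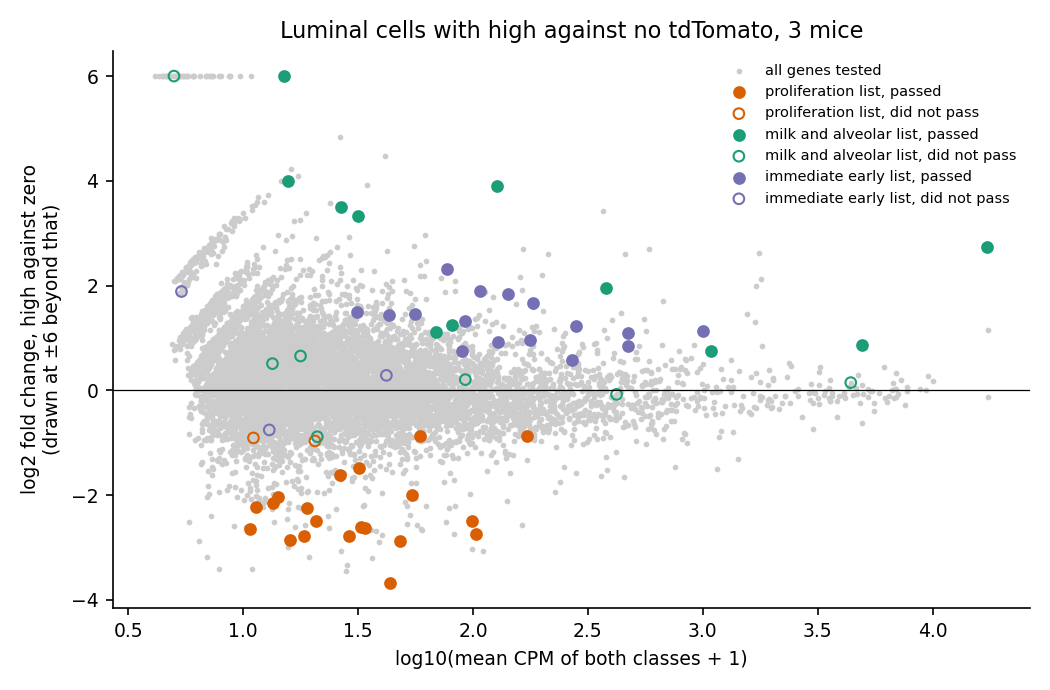
Log2 fold change of tdTomato-high against tdTomato-zero luminal cells (vertical axis) by log10 of the mean CPM of both classes plus 1 (horizontal axis) for 9090 genes, from sums of 3 mice; filled circles passed the test and open circles did not. Values above 6, which belong to genes with no UMI in the zero class, are drawn at 6. Proliferation genes lie below 0, while most milk and immediate early genes lie above it.

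Genes of milk and the alveolar cell were higher in tdTomato-high cells. Of 18 tested members of the milk and alveolar list, 11 rose, none fell and 7 did not pass, with a median log2 fold change of 1.18 against 0.145 over all genes (0.992 with the 2 members that had no zero-class UMI set to their bound). Its most abundant member was Wfdc18, which encodes a secreted protein of the whey acidic protein family (chromosome 11, 83709015 to 83711348, plus strand, GRCm38). Its levels were 46550, 19700, 21700 and 22270 CPM in the high class of tumours 1 to 4 and 4911, 8441, 1532 and 2712 CPM in the zero class. Every high value lay above every zero value. The means were 29420 ± 14880 and 5072 ± 3291 CPM (SD, n = 3 mice), a log2 fold change of 2.74 ± 0.13 (SE, edgeR quasi-likelihood test with Benjamini-Hochberg adjustment, adjusted p = 7.5e-98). Here and below, the SE of a log2 fold change comes from the fit's F statistic. Neither this SE nor the adjusted p measures the spread over mice. Cd74, given below, passed as lower (edgeR adjusted p = 3.56e-13) although its high class was above in 3 of 4 tumours. The tumours differed in the size of the gap, which was smallest in tumour 2 (19700 against 8441 CPM).

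Ltf encodes lactotransferrin, the iron-binding protein of milk (chromosome 9, 111019271 to 111042767, plus strand). It stood at 218.0, 228.5, 195.5 and 313.9 CPM in the high class and at 15.97, 15.66, 0 and 61.29 CPM in the zero class, where it had 10 UMIs in all. The classes did not overlap, and the log2 fold change was 3.90 ± 0.32 (edgeR adjusted p = 1.6e-31). Other members that rose were Csn3 (log2 fold change 0.87), which encodes kappa-casein, Lalba (0.75), which encodes alpha-lactalbumin of the lactose synthase, Mfge8 (1.95), a milk fat globule protein, and Elf5 (1.11), the transcription factor of alveolar cells. Wap, the whey acidic protein gene, was at 95.08 CPM in the high and 88.21 CPM in the zero class and did not pass. Trf, transferrin, was at 4295 and 4503 CPM and did not pass either. Without mouse 3 the list had 7 higher genes.

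Several milk genes were nearly absent from the zero class, which limits their folds. Csn2, the beta-casein gene, stood at 34.01, 39.47, 7.693 and 12.82 CPM in the high class and had no UMI in the zero class of any tumour. It passed the test on sums (edgeR adjusted p = 1.18e-05), but few cells carried it. Of 4171 high-class barcodes 25 held a Csn2 UMI (0.599%), and 10 of them held 95.8% of its 453 UMIs. The 0 of 176 zero-class barcodes allow a share of up to 1.70%, so a difference in the share of cells with a Csn2 UMI was not detectable at this depth, and no fold is given. Its level in the intermediate class was 28.74, 8.909, 10.39 and 10.29 CPM, above the high class in tumour 3. Btn1a1, which encodes butyrophilin of the milk fat globule membrane, had 1 zero-class UMI and a ratio of 18.0 with a 95% counting interval of 3.22 to 713. Csn1s1 and Csn1s2a, further casein genes, had 3 and 2 UMIs there and ratios of 9.53 (interval 3.25 to 46.3) and 9.42 (interval 2.60 to 77.9). These intervals count UMIs as independent, although 10 barcodes held 53.1% of the high-class Csn1s1 UMIs. The call for Csn1s2a was lost without mouse 1 and the call for Btn1a1 without mouse 3.

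The promoter of Csn2 and those of a pair of the genes lowest in tdTomato-high cells are shown, because milk genes and mitotic genes are the groups that moved in opposite directions. Each is the 250 bases before the RefSeq start on the minus strand of GRCm38.p6, at chr5:87699426-87699675 for Csn2, chr10:69352913-69353162 for the mitotic kinase gene Cdk1 and chr4:118437344-118437593 for Cdc20, an activator of the anaphase-promoting complex. The GENCODE gene model of Csn2 begins further upstream, at 87699630, so part of its window lies inside that model. Capitals mark matches, on either strand, to TTCNNNGAA (the core bound by STAT factors), to TTTGAA (a cell cycle homology element) and to CCAAT (bound by NF-Y; ATTGG on the other strand).
Csn2: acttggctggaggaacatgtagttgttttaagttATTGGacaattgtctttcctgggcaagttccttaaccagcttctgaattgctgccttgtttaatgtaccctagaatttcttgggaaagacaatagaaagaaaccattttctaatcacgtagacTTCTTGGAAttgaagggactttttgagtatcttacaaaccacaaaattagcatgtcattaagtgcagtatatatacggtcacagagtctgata
Cdk1: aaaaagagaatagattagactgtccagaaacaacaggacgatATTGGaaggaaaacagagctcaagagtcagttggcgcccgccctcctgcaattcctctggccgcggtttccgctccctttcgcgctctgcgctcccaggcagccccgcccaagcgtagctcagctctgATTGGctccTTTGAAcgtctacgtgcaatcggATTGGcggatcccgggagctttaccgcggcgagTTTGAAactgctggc
Cdc20: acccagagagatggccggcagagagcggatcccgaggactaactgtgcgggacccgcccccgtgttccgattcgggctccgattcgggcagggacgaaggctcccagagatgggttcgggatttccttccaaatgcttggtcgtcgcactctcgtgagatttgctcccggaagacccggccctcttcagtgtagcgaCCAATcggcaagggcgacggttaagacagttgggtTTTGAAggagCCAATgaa
The Csn2 window holds 1 TTCNNNGAA match. Among 27018 RefSeq promoter windows of the same length, 7.18% hold TTCNNNGAA, 16.3% TTTGAA and 34.5% CCAAT. Of the 15 named genes with the highest fold changes, 12 had a window, and 2 held TTCNNNGAA, 1 TTTGAA and 6 CCAAT. Of the 15 lowest, 13 had a window, and 0, 2 and 10 held these motifs. A match describes the letters and not a bound site.

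Acute phase and defence genes, which mammary epithelium secretes against microbes and in inflammation, were higher in tdTomato-high cells. Of 14 members tested, 10 rose and none fell, with a median log2 fold change of 2.04 (1.78 with C3, which had no zero-class UMI, set to its bound). Saa1, an acute phase apolipoprotein (chromosome 7, 46740497 to 46742980, minus strand), stood at 438.5, 497.2, 887.5 and 1155 CPM in the high and at 159.7, 19.58, 48.24 and 45.97 CPM in the zero class. The classes did not overlap, but tumour 1 differed least. The log2 fold change was 3.42 ± 0.22 (edgeR adjusted p = 1.32e-50). Its neighbour Saa2 rose by 2.61. The sequences of these genes are close to each other, so reads may be split between them.

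Hp, haptoglobin, which binds free haemoglobin, was at 72.55, 4.653, 191.7 and 120.6 CPM in the high class and at 7.986, 0, 0 and 15.32 CPM in the zero class. Tumour 2 was low in both classes, so that the ranges overlapped across tumours although the high class was above in each. With 2 zero-class UMIs the ratio was 29.9 (interval 8.27 to 247). Cp (2.17), which encodes ceruloplasmin, Slpi (1.92), a protease inhibitor, Lrg1 (1.47) and Chil1 (1.37) rose as well. Lcn2, the siderophore-binding lipocalin and the most abundant member, was at 6355, 8260, 6868 and 7939 CPM in the high and 10030, 5595, 3021 and 6191 CPM in the zero class. Tumour 1 went the other way, and the summed list was also lower in its high class (8669 against 11150 CPM). Lcn2 did not pass (log2 fold change 0.33, edgeR adjusted p = 0.0619), but it did without mouse 1 (0.83, edgeR adjusted p = 0.0083) and in 8 of 23 alternatives in all. The fit without mouse 1 is also the fit without tumour 1, and these 8 hold it under both names.

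Further secreted proteins showed the same contrast. Spp1 encodes osteopontin, a phosphoprotein of matrix and milk (chromosome 5, 104435118 to 104441050, plus strand). It was at 2109, 3248, 2967 and 3886 CPM in the high and 1062, 336.7, 223.1 and 505.7 CPM in the zero class. The classes did not overlap, with a log2 fold change of 2.62 ± 0.15 (edgeR adjusted p = 4.41e-62). Igfbp5, an insulin-like growth factor binding protein of the mammary gland, was at 2107, 3143, 3258 and 3521 CPM against 638.9, 1010, 235.2 and 1042 CPM. It did not overlap either, and the log2 fold change was 2.12 ± 0.14.

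Among the other genes of highest fold change, low counts in the zero class were the rule. Of the 15 highest, 13 had 3 or fewer zero-class UMIs, and 13 of 15 did not overlap between classes, against 19.2% of all genes tested. Both follow in part from the choice of the highest folds with the same direction in 4 tumours, so they are a description only. Of the 480 higher genes, 25 had no zero-class UMI and passed the count filter through the high class alone. Pabpn1, the nuclear poly(A)-binding protein gene, was at 24.94, 31.02, 28.41 and 30.44 CPM in the high class with no UMI in the zero class, at least 5.97-fold higher against a limit of 3 UMIs over the whole zero class. It was found in 12.7% of high-class barcodes, while 0 of 176 zero-class barcodes allow up to 1.70%. Its intermediate class was at 21.43, 21.86, 24.82 and 23.88 CPM, near the high class. The bound holds only for these 176 zero-class barcodes. Over 21 alternatives the log2 fold change of Pabpn1 ran down to 0.86, and its call was lost with at least 4000 UMIs. Wfdc12 (ratio 33.4, interval 5.98 to 1320) and Npy, neuropeptide Y (13.9, interval 4.74 to 67.3), had 1 and 3 zero-class UMIs. Cbr2, a carbonyl reductase gene, had a ratio of 11.8 (interval 3.25 to 97.4). Amtn (21.1, interval 3.77 to 834), the zinc finger gene Casz1 (15.96, interval 2.85 to 632) and the long noncoding RNA Gm26802 (18.4, interval 3.30 to 730) each had 1. The calls for Amtn and Casz1 were lost without mouse 3.

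Some genes of luminal progenitors and of luminal identity were higher in tdTomato-high cells. In the progenitor list 7 of 14 rose and none fell (median 1.26), and in the identity list 7 of 15 rose and none fell (median 0.75). Sox9, a transcription factor of progenitors, rose from 107.1 to 296.0 CPM (log2 fold change 1.51), Kit, a receptor of progenitors, by 1.38, and Cd14 by 1.74. Gata3, the master regulator of luminal fate, rose by 0.96 and Cldn3, a tight junction gene, by 0.56. Cldn3 was at 554.1, 783.3, 683.3 and 757.8 CPM in the high and 367.4, 548.1, 590.9 and 367.8 CPM in the zero class, higher in each tumour but overlapping across tumours. Without mouse 1 the identity list had 4 calls and lost Cldn3. Without mouse 3 the progenitor list had 3 calls and the identity list had 4. DESeq2 called 4 progenitor and 3 identity genes. With at least 6 luminal UMIs the progenitor list had 2 calls and the identity list 1, and without the mouse block 1 and 0. With classes set after thinning they had 10 and 11. The summed progenitor list was lower in the high class of tumour 1 (8259 against 11080 CPM) and higher in that of the other 3 tumours.

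Immediate early genes, which are transcribed within minutes of a stimulus and also during tissue dissociation, were higher in tdTomato-high cells. Of 19 members tested, 16 rose and none fell, with a median log2 fold change of 1.23. Fos, a subunit of the transcription factor AP-1 (chromosome 12, 85473890 to 85477273, plus strand), was at 837.5, 1709, 1400 and 1522 CPM in the high class and at 407.3, 1155, 416.0 and 505.7 CPM in the zero class. It was higher in each tumour, although the zero class of tumour 2 lay above the high class of tumour 1. The log2 fold change was 1.14 ± 0.15 (edgeR adjusted p = 7.18e-12). The AP-1 genes Jund (2.32), Fosb (1.91), Junb (1.10) and Jun (0.85), and Egr1 (1.84), Btg2 (1.66) and Dusp1 (1.45), rose as well. Myc (9.033 and 14.96 CPM), Socs3 (44.55 and 37.47 CPM in the high and zero class) and Klf2 did not pass. The list stayed between 12 and 16 calls when any 1 mouse or tumour was left out.

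Proliferation genes formed the main group that fell. Of 22 members tested, 20 were lower in tdTomato-high cells and none was higher, with a median log2 fold change of -2.36. The sum of the list was 285.3 to 467.6 CPM in the high class and 994.4 to 2406 CPM in the zero class of the 4 tumours. Rrm2, a subunit of ribonucleotide reductase that supplies DNA precursors (chromosome 12, 24708241 to 24714146, plus strand), was at 6.801, 4.653, 8.68 and 4.486 CPM in the high and 79.86, 23.49, 108.5 and 199.2 CPM in the zero class. The classes did not overlap, and the log2 fold change was -3.67 ± 0.40 (edgeR adjusted p = 5.39e-18).

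Pclaf, a partner of the replication clamp, was at 23.32, 20.51, 28.01 and 18.27 CPM in the high and 199.7, 117.5, 247.2 and 337.1 CPM in the zero class. Birc5, survivin of the chromosomal passenger complex, was at 21.38, 27.06, 28.01 and 23.39 CPM against 199.7, 90.05, 307.5 and 91.94 CPM. Neither overlapped between classes, with log2 fold changes of -3.07 ± 0.26 and -2.74 ± 0.26. Cdk1, whose promoter is shown above, fell by 2.88 on the log2 scale and Cdc20 by 2.78.

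None of the 15 lowest genes by the naming rule overlapped between classes, while 19.2% of all genes tested did not overlap. The rule asks for large folds of the same direction in 4 tumours, so this follows in part from the choice. Of these 15 genes, 6 belong to the proliferation list. The others include Pbk (-3.45), a mitotic kinase, Hmmr (-3.33), Cdca3 (-3.21), Knstrn (-2.89), Cenpm (-2.77) and Spc24 (-2.75), of the kinetochore, and Prim1 (-2.99), DNA primase. Alkal2, which encodes a ligand of the receptor kinase ALK, was the 1 gene among them that is not known for division: it stood at 2.915, 3.964, 1.775 and 2.724 CPM in the high and 55.9, 27.41, 6.03 and 45.97 CPM in the zero class (log2 fold change -3.18). Ccnd1, cyclin D1 of the G1 phase, fell by 0.86 but was higher in the high class of tumour 1 (61.21 against 55.9 CPM). Mki67 (7.48 and 12.71 CPM) and Rrm1 (13.94 and 25.14 CPM) did not pass.

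Without mouse 3, 7 proliferation genes passed and the calls for Ccnb1, Mcm3 and Ccnd1 were lost. Without tumour 3 alone 9 passed, and DESeq2 called 9. Cycling barcodes, defined by 2 or more UMIs of Mki67, Top2a, Ube2c, Birc5, Cdk1 and Tpx2 after thinning to 2500 UMIs, were 29.73% (11 of 37), 8.0% (6 of 75), 35.56% (16 of 45) and 21.05% (4 of 19) of the zero class. In the high class they were 3.209%, 2.805%, 3.589% and 2.737%, and in the intermediate class 17.26%, 14.22%, 21.0% and 15.43%. The zero class of tumour 2 was thus above its high class but below its intermediate class. Without thinning, 37.84%, 10.67%, 48.89% and 26.32% of the zero class had 2 or more such UMIs. With the barcodes of this unthinned count left out of both classes, 359 genes passed, 350 of them among the 952. The proliferation list, which holds genes of this count, then had 2 calls, the milk list 10 and the immediate early list 11.

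**Figure D3:**
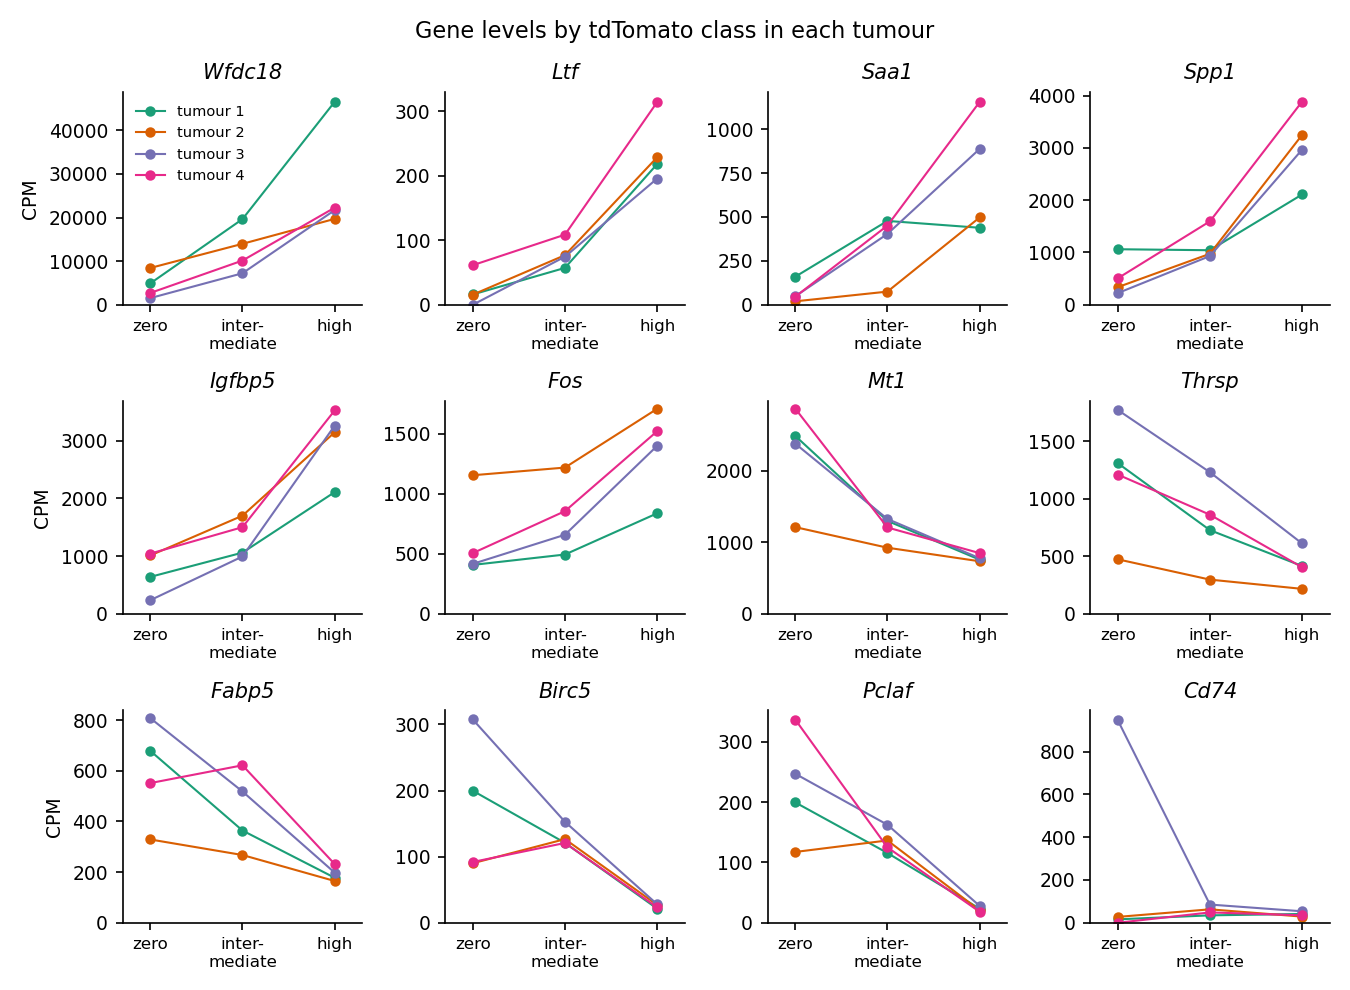
CPM (vertical axes) of 12 genes in the zero, intermediate and high tdTomato classes of luminal cells (horizontal axes), 1 line per tumour. Wfdc18, Ltf, Spp1, Igfbp5 and Fos are highest in the high class of each tumour, Birc5 and Pclaf are lowest there, and Cd74 is high in the zero class of tumour 3 (946.6 CPM) but between 0 and 27.41 CPM in the other tumours.

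Metabolic and stress genes moved in part. Of 22 genes of oxidative phosphorylation, the mitochondrial pathway that makes ATP, 10 were lower in tdTomato-high cells and none was higher (median -0.38). Cycs, cytochrome c, fell by 0.98 on the log2 scale (199.3 against 423.3 CPM) and Atp5b, of ATP synthase, by 0.72, while Cox4i1 (2491 ± 142 and 2169 ± 167 CPM) did not pass. Leaving out mouse 1, mouse 2, mouse 3, tumour 3 or tumour 4 left 3, 5, 2, 3 and 6 calls. Of 24 ribosomal protein genes none passed by edgeR or DESeq2, and 3 had an unadjusted p under 0.05 (median -0.13). With larger zero classes more were lower in the high class, 12 with classes set after thinning and 11 with a zero class of up to 1 UMI, and 1 was lower with RLE scaling, without mouse 2 or in barcodes of 2500 to 5000 UMIs. Of the 24 glycolysis and hypoxia genes 3 rose, Ndrg1 (2.29), Hk2 (2.11) and Ldha (0.41), and without mouse 3 the list had 1 call.

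Metallothioneins, which bind zinc and copper, were lower in tdTomato-high cells. Mt1 (chromosome 8, 94179082 to 94180327, plus strand) was at 755.9, 733.1, 775.3 and 847.1 CPM in the high class and at 2484, 1210, 2376 and 2865 CPM in the zero class. The classes did not overlap, and tumour 2 differed least (log2 fold change -1.31 ± 0.14, edgeR adjusted p = 1.7e-18). Mt2 fell by 1.63. Chaperones that fell were Hspd1 (-1.34), Hspe1 (-0.84), Hsp90aa1 (-0.70) and Sdf2l1 (-0.97), while Ddit3 (2.03), of the unfolded protein response, and Hspb1 (1.05) rose, among 18 tested. Without mouse 1 or without mouse 3 the list had 2 lower calls.

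Lipid genes were divided. Fabp5, a fatty acid carrier, was at 177.8, 164.9, 197.9 and 231.7 CPM in the high and 678.8, 328.9, 808.0 and 551.6 CPM in the zero class, without overlap (log2 fold change -1.53 ± 0.16). Thrsp, which promotes fatty acid synthesis in mammary cells, was at 415.2, 216.6, 611.3 and 404.6 CPM against 1310, 473.7, 1773 and 1211 CPM (log2 fold change -1.46 ± 0.15), lower in each tumour but overlapping across tumours. Scd1 (2.40), a fatty acid desaturase, and Srebf1 (0.84), a regulator of lipid synthesis, rose. Of 17 tested members of the lipid list, which does not hold Thrsp, 2 rose, 2 fell and 13 did not pass. Over all genes tested 5.28% were higher and 5.19% lower. Leaving out any 1 mouse left 1 lower call.

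Among genes that marked subsets of these tumours in earlier work on the same libraries, and that are therefore no independent evidence of direction, 6 of 12 fell and 2 rose. Dcpp1 (-2.56), Dcpp2 (-2.20) and Dcpp3 (-2.66), a cluster of close paralogs of the demilune cell and parotid protein whose reads may be split between copies, fell by the fit, as did Wif1 (-1.56), Car2 (-1.04) and Thrsp. Dcpp1 was at 56.68, 17.75, 3.945 and 59.44 CPM in the high and 63.89, 775.2, 36.18 and 0 CPM in the zero class. Its difference thus lay mainly in tumour 2, and tumour 4 went the other way. Dcpp2 was higher in the high class of tumours 1 and 4 and Dcpp3 in that of tumours 1 and 3. Npy and Dmkn (1.43) rose. Leaving out mouse 2 left 3 lower calls, and DESeq2 made 1.

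Signalling and matrix lists gave few calls. In the Notch and Wnt list 4 of 12 rose: Wnt5b, a Wnt ligand (1 zero-class UMI, ratio 15.0, interval 2.67 to 592), Hes1 (1.48), a Notch target, Tcf7l2 (1.29), and Notch1 (0.99). Notch1 was at 77.08, 92.03, 99.42 and 92.77 CPM in the high and 23.96, 54.81, 60.3 and 30.65 CPM in the zero class, without overlap. The list had 1 call without mouse 3 or without tumour 3. It had 0 in barcodes of 2500 to 5000 UMIs, in sums of barcodes thinned to 2500 UMIs, without cycling barcodes and with at least 6 luminal UMIs. With classes set after thinning it had 5. Of 15 TGF-beta genes only Tgfb3 passed (2.18), and of 15 growth factor genes Pdgfa rose (3 zero-class UMIs, ratio 4.30, interval 1.46 to 20.9) and Igfbp4 (-1.65) fell. A count of 1 in 15 is near the shares over all genes tested (5.28% higher, 5.19% lower) and says little about either list. The call for Pdgfa was lost without any 1 of the mice, and that for Igfbp4 without mouse 2, without mouse 3 or by DESeq2. Sox4 (0.82) and Sox9 were the 2 of 8 tested transcription factors of epithelial-mesenchymal transition that rose, and the calls for Sox4 and Notch1 were lost without mouse 1. In the matrix list Spp1, Ccn1 (1.22), Thbs1 (1.74) and Timp2 (2.09) rose and Vim (-1.51) and Sparc (-1.26) fell. Without mouse 2 neither of the last 2 passed. The summed endothelial markers stood at 195.8 CPM in the zero class of tumour 2 against 9.306 to 28.6 CPM in the high class of the 4 tumours. With barcodes that held 2 or more UMIs of 35 further markers of other cell types left out, neither gene passed (Vim -1.10, edgeR adjusted p = 0.11; Sparc -0.23, edgeR adjusted p = 0.814), nor did either with no UMI allowed of the 6 other-cell genes of the rule.

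Some genes of the interferon response and of MHC class I, which presents antigen on most cells, were higher in tdTomato-high cells. In the interferon list 5 of 14 rose, among them Isg15 (1.13), Irf7 (1.06) and Xaf1 (1.82). Another of the 5, Ifi44, had 0 zero-class UMIs and passed the count filter through the high class alone. Of this list 3, 1, 2 and 3 passed without mouse 2, mouse 3, tumour 3 and tumour 4. It had 1 call by DESeq2, in barcodes of 2500 to 5000 UMIs, in sums of barcodes thinned to 2500 UMIs and without cycling barcodes. With classes set after thinning it had 6. In the MHC class I list 4 of 12 rose, H2-D1 (0.58), H2-K1 (0.62), Psmb8 (0.70) and Tapbp (1.09), and 1 passed without mouse 1 and 2 without mouse 3. H2-D1 was at 1129, 702.3, 816.7 and 751.6 CPM in the high and 479.2, 716.5, 621.0 and 337.1 CPM in the zero class, so tumour 2 went the other way.

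MHC class II genes, which present antigen on professional immune cells, fell by the fit but rested on few cells. Cd74, the invariant chain gene, was at 41.13, 28.78, 53.66 and 34.93 CPM in the high class and at 15.97, 27.41, 946.6 and 0 CPM in the zero class. It was thus lower in the high class of tumour 3 and higher in the high class of the other tumours. The fitted log2 fold change of -2.11 turned to 0.86 without tumour 3 and to 0.56 without mouse 3. In tumour 3, 3 of 45 zero-class barcodes held 330 of the 341 UMIs of 4 class II genes (96.77%). With barcodes left out that had 2 or more UMIs of 35 further markers of other cell types, the Cd74 value was 0.15 and no class II gene passed by edgeR; DESeq2 called 0 with all barcodes. Ccl5, a chemokine gene, also rested on tumours 1 and 3 of the zero class (111.8 and 186.9 CPM there, 0 in tumours 2 and 4), and its call was lost without mouse 3.

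Markers of other cell types did not pass in either direction by edgeR or DESeq2: 0 of 7 macrophage genes tested (3 with an unadjusted p under 0.05), 0 of 2 neutrophil and mast cell genes (1 such), and 0 of 2 fibroblast, 1 mural and 2 adipocyte or erythroid genes (0 such). No endothelial, T cell or B cell marker had enough counts to be tested in the sums of all mice. Other settings gave calls, nearly all of them lower in the high class. Endothelial genes had 3 without mouse 1, 2 without the count filter and 1 with classes set after thinning. Macrophage genes had 1 without mouse 2, 3 with classes set after thinning and 4 with a zero class of up to 1 UMI. Neutrophil and mast cell genes had 1 without mouse 3 and 1 and 2 in the last 2 of these settings, adipocyte or erythroid genes 2 in each of them, and T and NK cell genes 1 in the last. The single mural gene was higher after thinning and lower with the wider zero class, and 2 adipocyte or erythroid genes were higher with a high class from 5 per 4000. Summed macrophage markers ranged from 122.6 to 458.2 CPM in the zero and from 134.4 to 283.7 CPM in the high class, and T and NK cell markers from 7.83 to 55.9 and from 3.447 to 14.4 CPM. The macrophage gene Adgre1 had 0 UMIs in the zero class and 1 in the high class. Barcodes with 2 or more UMIs of the 35 further markers made up 21.62%, 8.0%, 22.22% and 15.79% of the zero class and 12.97%, 12.09%, 32.3% and 23.77% of the high class. Without these barcodes 743 genes passed, 695 of them among the 952, and the proliferation, milk and immediate early lists had 18, 10 and 15 calls.

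The reporter sits in the Rosa26 locus, so the genes around it were examined. None of the 4 tested neighbours passed by edgeR or DESeq2, and 0 had an unadjusted p under 0.05. Gt(ROSA)26Sor, the transcript of the locus itself, was at 41.45, 60.66, 29.79 and 39.73 CPM in the high and 15.97, 50.9, 12.06 and 76.62 CPM in the zero class, higher in 3 of 4 tumours and overlapping (log2 fold change 0.46 ± 0.36, edgeR adjusted p = 0.494). Thumpd3 (-0.26 ± 0.45) and Mtmr14 (1 zero-class UMI, ratio 4.06, interval 0.716 to 161) had wide errors as well. Setd5, a neighbour of the locus, had a log2 fold change of 0.39 ± 0.26 and passed without mouse 2 (1.06, edgeR adjusted p = 0.0451), with classes set after thinning (0.60, edgeR adjusted p = 0.0173) and with a zero class of up to 1 UMI (0.65, edgeR adjusted p = 0.00656). Gt(ROSA)26Sor passed with classes set after thinning (0.59, edgeR adjusted p = 0.036). Among 18 genes of chromatin repression, which can silence transgenes, 4 were lower in tdTomato-high cells and none was higher. They were Uhrf1 (-2.26), Hdac2 (-1.24), Ezh2 (-1.05) and Cbx5 (-1.01), and no gene of the list passed without mouse 1, without mouse 3, without tumour 3, without cycling barcodes or by DESeq2. Dnmt1, the maintenance methyltransferase, was at 28.3 and 53.97 CPM (edgeR adjusted p = 0.0534).

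The intermediate class was not used by the test and is given as a description. It lay between the compared classes in all 4 tumours for 321 of the 480 higher and 247 of the 472 lower genes. The share over all genes tested was not counted. Genes called for a wide gap between the classes hold a class between them more easily, so these counts show no trend by themselves. Wfdc18 was at 19650, 13980, 7228 and 10140 CPM there, between zero and high in each tumour. Saa1 was at 477.6 CPM in the intermediate class of tumour 1, above its high class. Pclaf was at 115.8, 136.6, 162.6 and 125.1 CPM, and in tumour 2 this was above the zero class.

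In finer steps of the reporter level, with limits chosen after the data were seen, the milk and alveolar sum of tumour 3 went from 5990 CPM at levels above 0 and up to 2.5 per 4000 to 9931, 17730, 30390 and 38590 CPM in the bins from 2.5, 5, 10 and 20 upwards. Its proliferation sum went from 2513 to 1933, 994.4, 454.4 and 218.6 CPM over the same bins. Tumours 1, 2 and 4 showed the same order of the proliferation sum above 0. The zero bin did not continue this trend: its proliferation sum was 1198, 994.4, 2406 and 1548 CPM in tumours 1 to 4, below the 1762, 1970, 2513 and 1951 CPM of the next bin. The top bin held 51 to 116 barcodes and the zero bin 19 to 75, fewer than 20 in tumour 4, and in tumours 1 and 2 the milk sum was lower in the top bin than in the bin from 10 to 20. Bins of 1 tumour share a library, and their median depth also differed (3015.0 to 3470.0 UMIs in the zero bin, 3587.0 to 4807.0 in the next); its part in the trend was not tested.

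**Figure D4:**
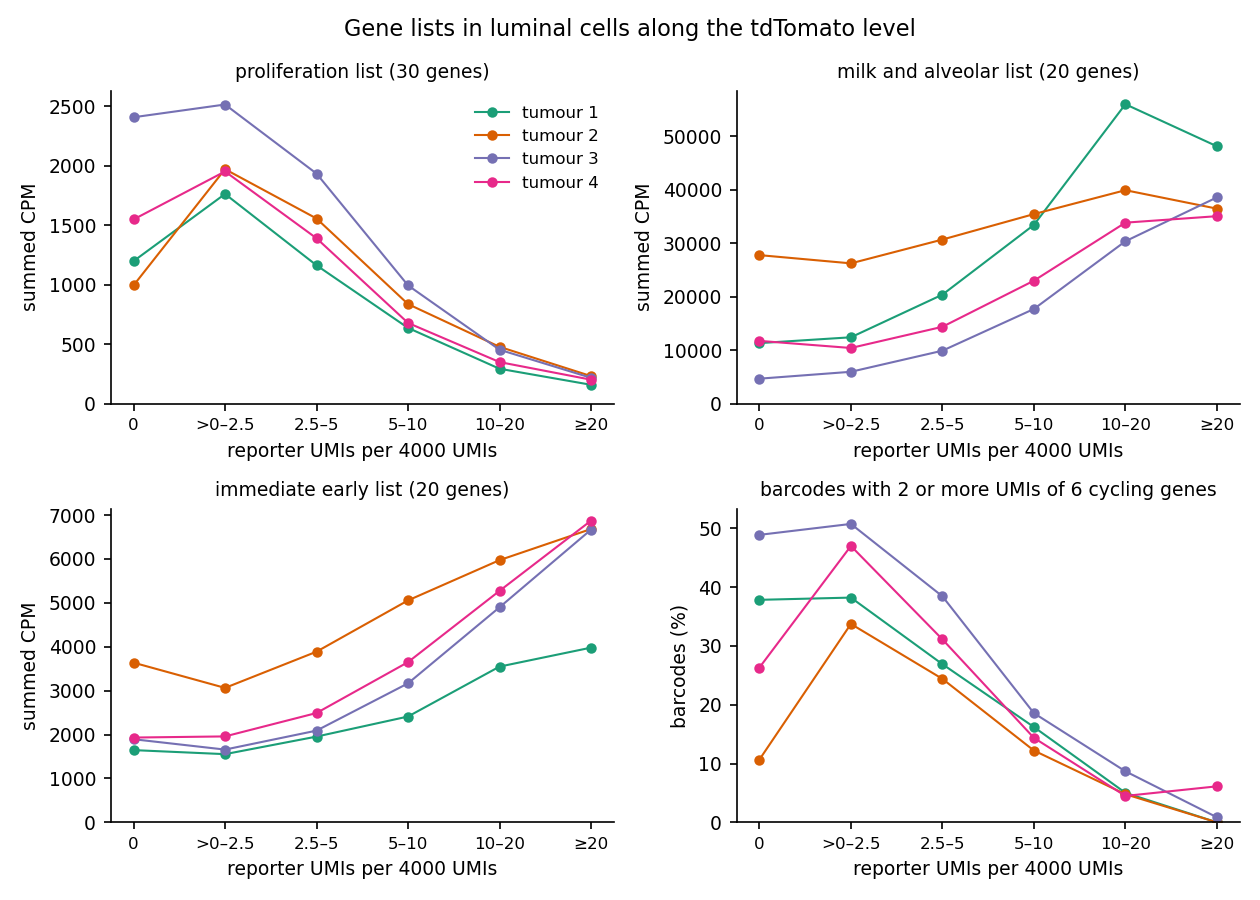
Summed CPM of the proliferation, milk and alveolar, and immediate early lists, and the percentage of cycling barcodes without thinning (vertical axes), by tdTomato UMIs per 4000 UMIs in luminal barcodes (horizontal axes), 1 line per tumour. Proliferation sums fall from the second bin on, from 1762 to 2513 CPM down to 159.9 to 233.0 CPM, and the zero bin lies below the second bin in each tumour.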

How the data were processed

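Gene expression was measured by droplet single-cell RNA sequencing in 4 tumours of 3 mice. The matrices deposited by the authors give whole-number UMI counts for genes by cell barcodes, 1 matrix per tumour. Cell Ranger 2.2.0, FastQC and the mm10 (GRCm38) genome are named per the submitters' processing notes; the aligner settings and the way barcodes were called are not given in the sources used here. The replicate is the mouse, and tumours 3 and 4 were summed because they come from mouse 3. Both classes come from the same mice, so mouse was a block. The libraries shared 96 to 129 barcode sequences per pair, and such barcodes were treated as separate cells.

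Counts were summed per mouse and class. The sums were filtered with filterByExpr, scaled by TMM and tested by quasi-likelihood in edgeR 4.0.16 (R 4.3.3). The Benjamini-Hochberg adjustment covered all 9090 genes tested, with calls at 0.05. Every adjusted p comes from this fit or, where named, from an alternative given below. Each SE of a log2 fold change is that value divided by the square root of the test's F statistic. Neither such an SE nor the adjusted p measures the spread over mice. The reporter and the 9 genes of the rule were left out. Luminal barcodes had median totals of 3632.0, 4171.0, 4286.0 and 4162.5 UMIs. No doublet caller was run; the limit on genes of other cells and the added filter on 35 further markers are the treatment of doublets. Thinning drew 2500 UMIs per barcode without replacement. The fit was tested on simulated data of 3 mice first. Among changed genes that were tested, it recovered 17.2% of those with a log2 fold change of 1 in size. For a size of 2 it recovered 72.1%, and of 78 calls in all 1 was false. A gene that did not pass may thus still differ.

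The members, the 35 gene lists and the tests were chosen with earlier results of these data known. Named were the 15 highest and 15 lowest fold changes among genes that passed, went the same way in 4 tumours and reached 20 CPM in the higher class, the most abundant gene of each list, and the Rosa26 neighbours tested. Other list genes in the text are examples, and some genes are not reported here. Gene coordinates are those of GENCODE M21 (GRCm38), and 55144 of 55471 gene identifiers were found there. A symbol given to several identifiers (231 entries) was read at the one with most counts. Promoter windows come from RefSeq (GRCm38.p6). Alternatives were RLE scaling, DESeq2 1.42.0, no count filter, sums per tumour, no block, other limits of depth, of the reporter and of the rule, thinning, removal of cycling barcodes, and leaving out each mouse or tumour. For mouse 1 and mouse 2, leaving out the mouse and leaving out its tumour are the same fit.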

Additional observations from a re-analysis of the deposited data

Results flagged for a closer look

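In 7 of 72 sets of 4 tumours that were checked, 1 tumour stood apart by a Dixon test, which flags about 1 in 20 sets by chance. For the gene ratios, the CPM of 1 zero-class UMI of the same tumour was first added to both classes. This addition differs by tumour, and where the zero class held no UMI the ratio rests on it. The high to zero ratio of Saa1 was 1.41 on the log2 scale in tumour 1 against 4.04 to 4.42 in the others. For Igfbp5 it was 3.76 in tumour 3 against 1.63 to 1.74. For Mt1 it was -0.72 in tumour 2 against -1.74 to -1.61. For Cox4i1 it was 0.08 in tumour 1 against 0.25 to 0.27. Egfl7, an endothelial gene with 13 zero-class UMIs in tumour 2 and 0 in the other tumours, stood at -3.57 in tumour 2 against 0.25 to 0.94. Igkc, an antibody gene with 2 zero-class UMIs, both in tumour 1, stood at -0.63 there against 0.04 to 0.14. Median genes per barcode were higher in the high class by 308 in tumour 4, where the zero class held 19 barcodes, against 201 to 208 in the others.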

How the results depend on the processing

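The zero class of 176 barcodes limits depth: most folds rest on few zero-class UMIs. The main test gave 952 calls, 480 higher and 472 lower, 44 among the named genes and 137 among list genes, and these 5 counts are given in this order. Without the pairing of classes by mouse (no replicate block) they were 196, 89, 107, 25 and 35, and with 1 sum per tumour and tumour as the block 993, 567, 426, 44 and 142. DESeq2 gave 420, 167, 253, 26 and 68. Leaving out 1 mouse or tumour gave 315 to 804, 174 to 428, 141 to 397, 33 to 44 and 69 to 129. Barcodes of 2500 to 5000 UMIs gave 451, 230, 221 and 81 for list genes. Classes set after thinning to 2500 UMIs gave 2895, 1355, 1540 and 224 for list genes, of which 897 calls were shared with the main test. Thinned sums gave 439, 236, 203 and 84 for list genes. At least 4000 UMIs gave 430, 282, 148 and 83 for list genes. At least 6 luminal UMIs gave 203, 134, 69 and 55 for list genes. A zero class of up to 1 tdTomato UMI gave 2550, 1179, 1371 and 206 for list genes. Without cycling barcodes the counts were 359, 229, 130 and 71 for list genes. A high class from 5 per 4000 gave 572 calls, 216 of them lower, and from 20 per 4000 it gave 18 named and 78 list genes, with fewer genes tested. Without the count filter 217 genes were lower, and the share of higher calls was 70.5% against 50.4%. RLE scaling moved none of the counts by more than 1.5 times (899 calls). The filter on 35 further markers was chosen after the data were seen.

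Leaving out 1 mouse or tumour gave Cd74 log2 fold changes from -2.90 (without mouse 2) to 0.86 (without tumour 3), reversed also without mouse 3 (0.56). Cd74 also reversed to 0.29 with at least 6 luminal UMIs, 2.97 at 4000 UMIs or more and 0.15 without barcodes holding other-cell markers. Ccl5 reversed to 8.397 at 4000 UMIs or more. Hbb-bs, which did not pass in the main test, reversed to -2.52 with classes set after thinning and -1.46 with a zero class of up to 1 UMI. The cause was not tested. Class shares moved with depth. With at least 4000 UMIs the zero class held 0.916%, 0.515%, 0.646% and 0.216% of luminal barcodes and the high class 38.72% in tumour 1. After thinning the zero class held 3.43%, 4.89%, 5.02% and 2.52% and the high class 31.31% in tumour 1, 31.88% in tumour 3 and 34.98% in tumour 4. For barcodes of 2500 to 5000 UMIs the median UMIs differed by 290.6 and the median genes by 84.88, and by 14.0 after thinning. Leaving out 1 tumour gave differences of 720.3 to 932.3 UMIs, 203.3 to 239.0 genes and -0.07963 to 0.02883 percentage points of mitochondrial UMIs.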

Other observations

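Further lists had few calls. Over all genes tested 5.28% were higher and 5.19% lower, so a single call says little about its list. Of 11 mitochondrially encoded genes tested, mt-Co1, a subunit of cytochrome c oxidase, was higher in tdTomato-high cells (425.6 against 264.1 CPM, log2 fold change 0.72), and none was lower; that call was lost without mouse 1. Of 4 tested genes of hormone-sensing cells none passed by edgeR or DESeq2 (2 had an unadjusted p under 0.05), and Prlr, the prolactin receptor, was at 70.21 ± 3.44 and 36.85 ± 18.1 CPM. Of 13 antioxidant genes Nqo1 (1.65) rose, and Prdx1 (-0.47) fell beside both metallothioneins, and the call for Nqo1 was lost without mouse 1 or mouse 3. Cxcl16 (1.99) was the 1 chemokine gene that rose, and its call was lost without mouse 1 or mouse 3. In the list of other basal genes, Igfbp5 rose and Sparcl1 fell by 1.12 on the log2 scale, the only members with enough counts to be tested. The call for Sparcl1 was lost without mouse 2 or mouse 3.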
